A study of Homo sapiens with 3 samples.

Results

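The regions described here are the peaks in the interior of human chromosome 7, in chromatin immunoprecipitation and sequencing (ChIP-seq) of K562 cells. They were chosen by position alone: a peak belongs to the set if its midpoint lies on chromosome 7 from 5 Mb up to 154 Mb and outside the stretch from 56 to 63 Mb around the centromere. The rule leaves 51 Mb of the short arm (7p) and 91 Mb of the long arm (7q), with both chromosome ends and the centromeric flank removed. It took 1311 of the 19529 peaks in the deposited lists, of which 1026 came from the 14365 codanin-1 peaks (7.14%) and 285 from the 5164 GATA1 peaks (5.52%). On the same chromosome 264 codanin-1 and 193 GATA1 peaks lay outside these bounds.

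K562 is an established human erythroleukaemia line, and the labels give no genotype or treatment beyond the line itself. The codanin-1 library was made with Cod1, a homemade antibody against residues 123 to 142 near the N-terminus of the protein, and the GATA1 library with the commercial antibody N6. All libraries shared the same preparation, from 30000000 cells fixed for 10 minutes in 1% formaldehyde. Each antibody had 1 library, so no value below carries a replicate error, and the rabbit IgG library and a second codanin-1 antibody were not analysed here.

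GATA1 is a zinc-finger transcription factor that binds GATA motifs in enhancers and promoters and switches on globin, haem and red-cell membrane genes. Codanin-1 is the product of CDAN1, the gene that is mutated in congenital dyserythropoietic anaemia type I. It is a partner of ASF1, a histone chaperone that hands histones H3 and H4 to the assembly of new nucleosomes. Chromosome 7 has gene-poor stretches on both arms, gene-rich bands on the long arm, and many segmental duplications along the long arm. The HOXA cluster lies on its short arm, and the genes for erythropoietin and transferrin receptor 2 lie on its long arm. The supplied gene table is of another build than the peak files (hg19), so peaks are named by position, without genes, and no sequence is shown.

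The long arm held most of the peaks. On 7q the codanin-1 list had 885 peaks, or 9.73 per Mb (95% exact Poisson interval 9.10 to 10.4), and on 7p 141 peaks, or 2.76 per Mb (2.33 to 3.26). GATA1 had 258 peaks on 7q, or 2.84 per Mb (2.50 to 3.20), and 27 on 7p, or 0.529 per Mb (0.349 to 0.770). The density on 7p was thus 0.284 times that on 7q for codanin-1 (95% exact interval 0.236 to 0.340) and 0.187 times for GATA1 (0.121 to 0.278), so both lists were sparser on the short arm. The length covered showed the same order, with 31.0 kb of codanin-1 peaks on 7p and 235.3 kb on 7q, and 3.91 kb and 41.8 kb of GATA1 peaks. These intervals cover counting error only. Assembly gaps were not taken out of the lengths, and the copy number of the arms in these cells was not tested.

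**Figure D1:**
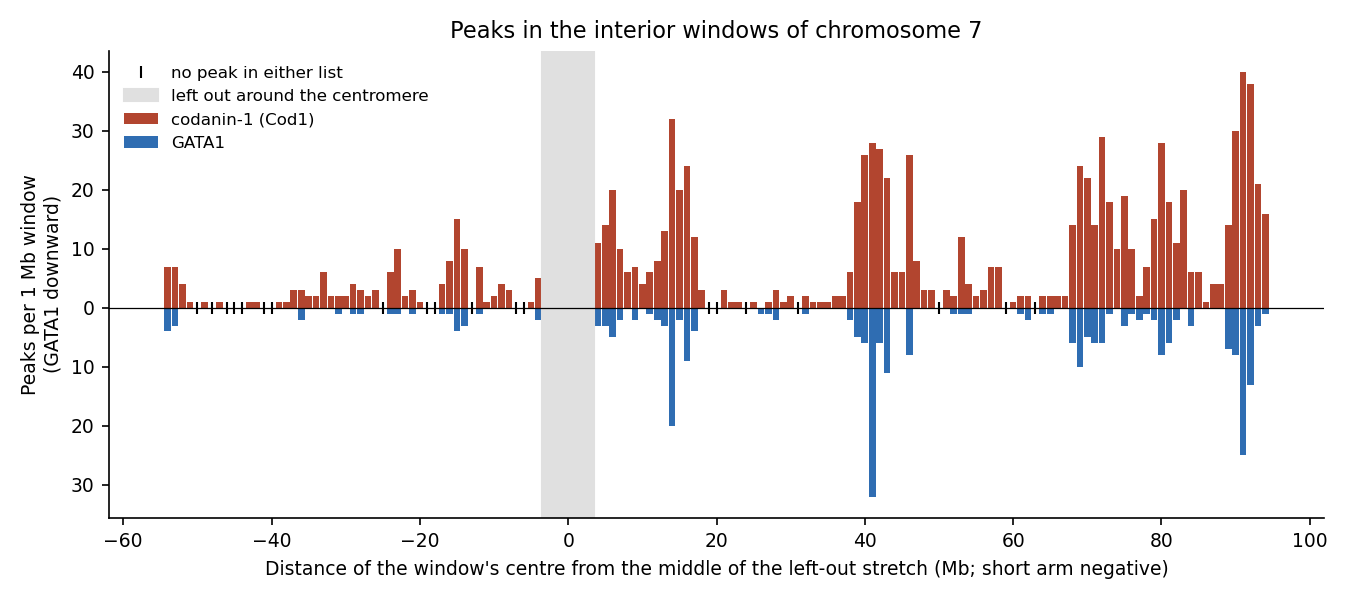
Peaks per 1 Mb window of the chromosome 7 interior, codanin-1 upward and GATA1 downward, against the distance of the window's centre from the middle of the left-out centromeric stretch (Mb, short arm negative). Tall bars stand in separate groups on the long arm, up to 40 codanin-1 and 32 GATA1 peaks, whereas no window of the short arm exceeds 15 codanin-1 or 4 GATA1 peaks, and ticks on the zero line mark the 20 windows without a peak in either list.

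Within each arm the peaks came in blocks. Among the fixed 10 Mb segments, the one from 10 to 20 Mb on 7p held 4 codanin-1 peaks and no GATA1 peak, and the one from 80 to 90 Mb on 7q held 13 and 4. The segment from 130 to 140 Mb held 152 codanin-1 and 30 GATA1 peaks. The last 4 Mb of the interior, from 150 to 154 Mb, held 115 and 42, the highest density of any segment for both lists at 28.8 and 10.5 peaks per Mb. Neighbouring segments of 7q also differed widely, with 11.8 codanin-1 peaks per Mb from 70 to 80 Mb and 1.30 in the next 10 Mb.

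The fullest 1 Mb windows were shared between the lists. For codanin-1 they were those starting at 150 Mb (40 codanin-1 and 25 GATA1 peaks), 151 Mb (38 and 13), 73 Mb (32 and 20), 149 Mb (30 and 8), 131 Mb (29 and 6) and, tied, 100 Mb (28 and 32) and 139 Mb (28 and 8). For GATA1 the windows at 100, 150, 73 and 151 Mb came first, followed by 102 Mb (11 GATA1 and 22 codanin-1 peaks) and 128 Mb (10 and 24). All 9 of these windows are on 7q. The 6 fullest windows held 38.9% of the interior GATA1 peaks and 19.2% of the codanin-1 peaks, a share that also depends on the length of each list. The variance of the window counts over their mean was 9.44 for GATA1 and 10.9 for codanin-1, at means of 2.01 and 7.23. For crowded counts this ratio also depends on the mean, so neither measure was used to rank the lists by concentration. On 7p the fullest window, from 44 to 45 Mb, held 15 codanin-1 and 4 GATA1 peaks.

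Empty windows were commoner on the short arm. No peak of either list lay in 13 of the 51 windows of 7p (25.5%) and in 7 of the 91 windows of 7q (7.69%). The rest of the genome had 33.7% of its windows empty in both lists, and the interior as a whole 14.1%. Windows of the rest include the centromeres and chromosome ends that the interior leaves out, so the 2 shares come from unlike regions. Runs of at least 2 empty windows lay at 13 to 16 Mb, 18 to 20 Mb, 40 to 42 Mb and 52 to 54 Mb on 7p, and at 78 to 80 Mb on 7q. The widest gap between neighbouring peaks of either list was 4.41 Mb, from 12559132 to 16973564, and the widest on 7q was 3.17 Mb, from 77503090 to 80676409. GATA1 peaks were missing over longer stretches, from 7 to 23 Mb on 7p, where 14 codanin-1 peaks lay, and from 77 to 85 Mb on 7q, where 9 did. Of the 142 interior windows, 56 had codanin-1 peaks and no GATA1 peak, against 1020 of the 2964 windows in the rest of the genome. In the reverse direction, 1 interior window, from 85 to 86 Mb, had a GATA1 peak and no codanin-1 peak, against 77 in the rest.

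**Figure D2:**
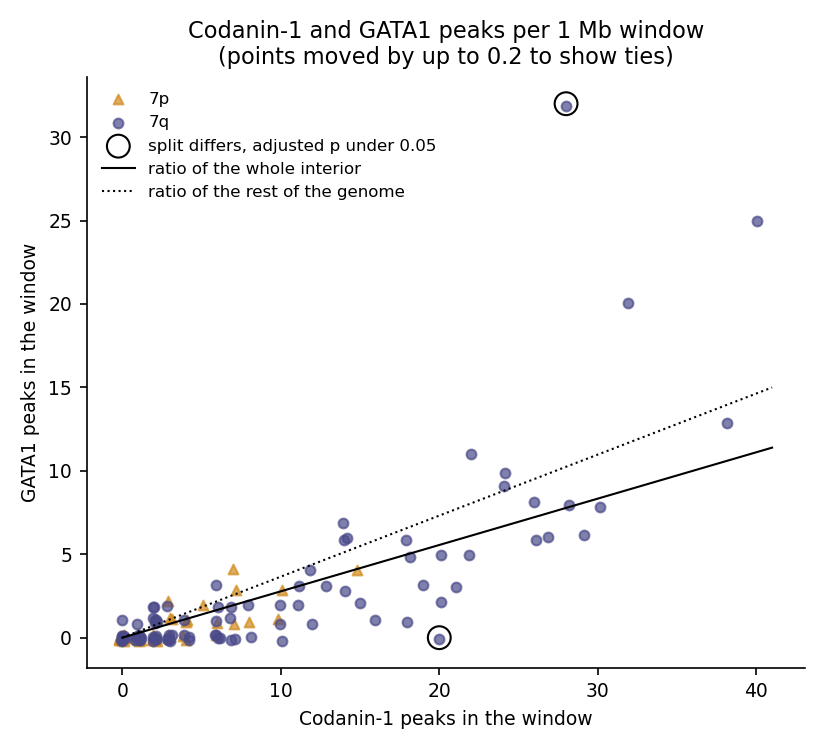
Codanin-1 peaks (x axis) against GATA1 peaks (y axis) in each 1 Mb window of the chromosome 7 interior, triangles for 7p and circles for 7q, with the ratio of the interior (solid line, 3.60) and of the rest of the genome (dotted line, 2.73). The 2 ringed windows are those whose split differed from the other windows of the genome, with 28 codanin-1 and 32 GATA1 peaks in one and 20 and 0 in the other.

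Windows rich in one list were mostly rich in the other. Over the 142 interior windows, which share chromatin, copy number and mappability between the lists, Pearson's r was 0.78 and Spearman's rho 0.76. This is a description of neighbouring windows of 1 library per antibody. Against that common trend, each window with at least 10 peaks of both lists together was compared with all other windows of the genome by Fisher's exact test, two-sided, adjusted over the 553 windows tested. Of the 42 interior windows tested, 2 were called (4.76%), against a background of 7.96% over the genome. With so few calls the 2 shares cannot be told apart, and their difference was not tested. The interior had 1 window with a larger GATA1 share, where the genome-wide rate was 7.05%, and 1 with a larger codanin-1 share, where it was 0.904%. At an unadjusted p under 0.05 there were 4 interior windows, and of the 5 windows tested on 7p 0 were called.

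The window called for GATA1 runs from 100000001 to 101000000. It held 32 GATA1 peaks beside 28 of codanin-1. The odds of codanin-1 over GATA1 were 0.31 times those in the other windows (adjusted p = 0.00027, Fisher's exact test). It was 1 of 5 among the 142 interior windows in which GATA1 peaks were at least as many as codanin-1 peaks, against 203 of 2964 in the rest of the genome. The others, starting at 85, 86, 121 and 136 Mb, held at most 2 peaks of each list. Of the 32 GATA1 peaks 13 stood in a single cluster of 26.5 kb, at 100635223 to 100661728, together with 5 codanin-1 peaks. Their folds were ordinary, with a median of 4.17 in the window for GATA1 and 4.01 for codanin-1, close to the interior medians of 4.18 and 3.94. The window called for codanin-1 runs from 142000001 to 143000000 and held 20 codanin-1 peaks and no GATA1 peak (adjusted p = 0.048, Fisher's exact test). Its call was lost when windows were shifted by 0.5 Mb, at a −log10 q of at least 1.5, at a fold of at least 4, and when chromosomes 9, 22, Y and M were left out of the comparison.

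Dense clusters, defined as at least 6 peaks of both lists in which neighbours lie within 10 kb, numbered 12, and all 12 were on 7q. They held 48 GATA1 peaks (16.8% of the interior's GATA1 peaks) and 69 codanin-1 peaks (6.73%). No share over the whole lists is given beside these. The long arm held 1143 of the 1311 peaks, more closely spaced, so a fixed limit of 10 kb finds clusters there more easily. The cluster just described, with 18 peaks, was the most populous. Next came clusters of 13 peaks at 128531925 to 128580310 (7 codanin-1 and 6 GATA1) and at 129405734 to 129440122 (9 and 4), and clusters of 12 at 102135207 to 102205539 (10 and 2) and at 150094068 to 150114969 (7 and 5). Clusters of 9 lay at 73508581 to 73535699 (6 and 3) and at 150906574 to 150947170 (5 and 4). The other 5 held 6 or 7 peaks, at 75601020 to 75623686, 101799563 to 101819324, 102261805 to 102279988, 140367127 to 140396766 and 151073060 to 151089057. At the other extreme, 676 of the 1311 peaks (51.6%) had no neighbour of either list within 10 kb.

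Codanin-1 peaks outnumbered GATA1 peaks by 3.60 to 1 in the interior, by 5.22 on 7p and by 3.43 on 7q. In the rest of the genome the ratio was 2.73, and on chromosome 7 outside the interior bounds it was 1.37. The interior differed from the rest (odds ratio 1.32, 95% exact interval 1.15 to 1.51, adjusted p = 0.00010 by a two-sided Fisher's exact test). That difference depended on what the rest was. Interiors of the other chromosomes were taken without 5 Mb at each end, the far end counted from the last peak, and kept their centromeric stretches. With chromosomes 9, 22 and Y left out, their ratio was 4.04 and the odds ratio turned to 0.89 (adjusted p = 0.12, Fisher's exact test). Among peaks with a −log10 q of 1.5 or more it was 1.71 (adjusted p = 2.3e-08, Fisher's exact test). With peaks within 10 kb merged into 1 it was 1.02 (adjusted p = 0.84, Fisher's exact test). Between the arms the odds ratio was 1.52 (0.98 to 2.45, adjusted p = 0.086, Fisher's exact test), so a larger codanin-1 share on 7p was not resolved. List length depends on sequencing depth, which is unknown, so the ratios describe the lists and not the amount of either protein on chromatin.

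Few sites were common to both lists. Of the 1026 interior codanin-1 peaks, 20 shared at least 1 bp with a GATA1 peak, which is 1.95% (95% exact interval 1.19 to 2.99), against 6.60% of the whole codanin-1 list. From the other side, 23 of 285 GATA1 peaks shared bases with codanin-1, which is 8.07% (5.18 to 11.9), against 20.2% of the whole GATA1 list. Both shares were below those in the rest of the genome, which were 6.96% and 20.9%: the odds ratio was 0.27 for codanin-1 (0.16 to 0.42, adjusted p = 8.4e-12) and 0.33 for GATA1 (0.21 to 0.51, adjusted p = 3.9e-08), both by Fisher's exact test, two-sided. Set against the rest without chromosomes 9, 22, Y and M, the odds ratios were 0.46 (adjusted p = 0.0013) and 0.54 (adjusted p = 0.012), by the same exact test. The interiors of the other chromosomes without 9, 22 and Y, which kept their centromeric stretches, had 3.58% and 15.0% overlapping. Against them the odds ratios were 0.54 (adjusted p = 0.015) and 0.50 (adjusted p = 0.0071) by Fisher's exact test. With −log10 q held to 1.5 or more in both lists the codanin-1 odds ratio against the rest was 0.17 (adjusted p = 3.9e-09, Fisher's exact test). Among peaks with a fold of at least 4 the differences were no longer called, where Fisher's exact test gave 0.50 (adjusted p = 0.25) and 0.60 (adjusted p = 0.27). Peaks count as independent in all of these comparisons, which neighbours are not, so each p describes the 2 lists.

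**Figure D3:**
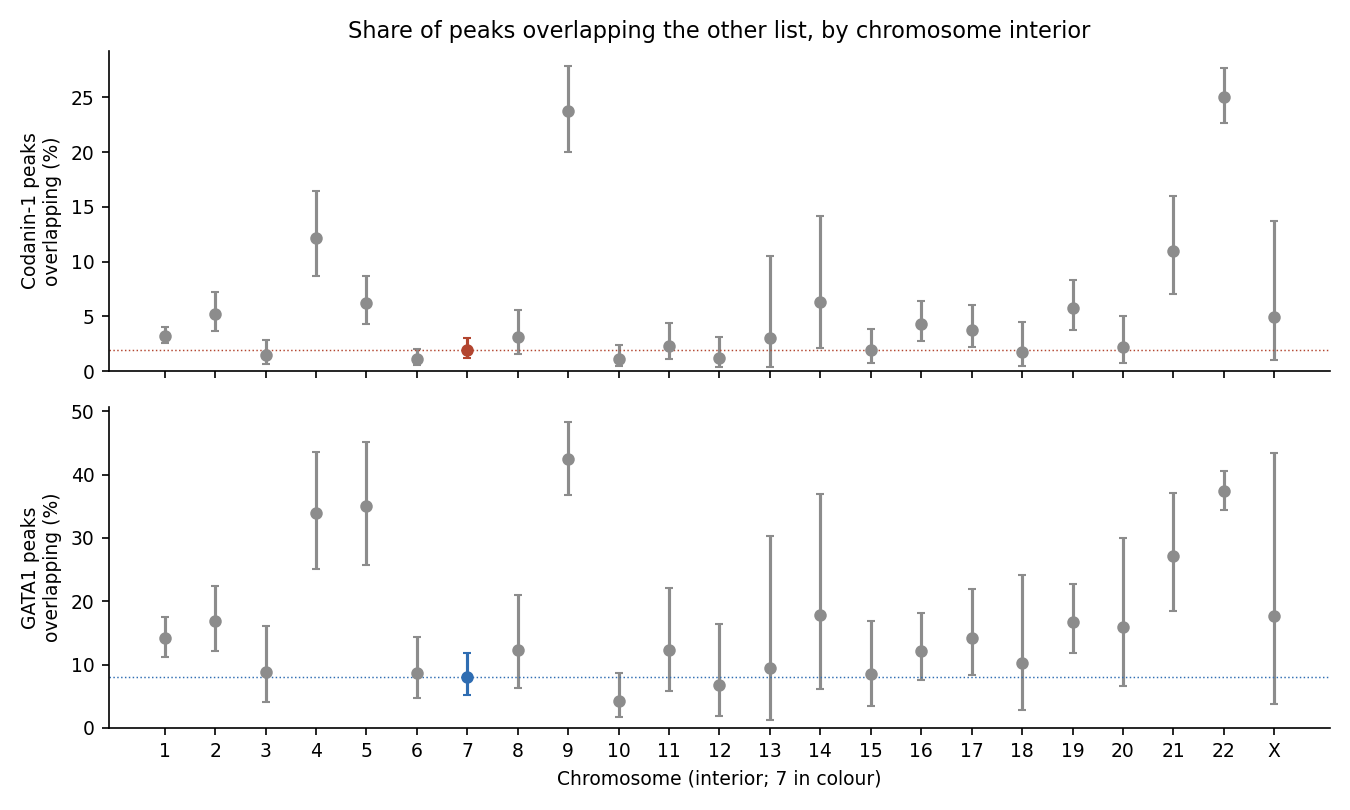
Share of codanin-1 peaks (upper panel) and GATA1 peaks (lower panel) that overlap a peak of the other list, in % by chromosome interior, with 95% exact binomial intervals. Only the interior of chromosome 7 leaves out a stretch around the centromere. Chromosome 7, in colour with a dotted line at its level, stands at 1.95% and 8.07%, while chromosomes 9 and 22 have the highest shares plotted in both panels (chromosome Y is not plotted).

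Some other chromosome interiors also had low shares of common sites. By density its interior ranked 4 for codanin-1 and 7 for GATA1 among the 24 nuclear chromosomes, and by overlapping share it ranked 18 and 22. Chromosome 10 had 1.15% of codanin-1 and 4.29% of GATA1 peaks overlapping, and chromosome 6 had 1.12% and 8.67%. Chromosome 16, whose interior has nearly the same densities (6.63 codanin-1 and 2.06 GATA1 peaks per Mb, against 7.23 and 2.01 on chromosome 7), had 4.32% and 12.1%. These neighbours were given as values and their difference from chromosome 7 was not tested. The other interiors kept their centromeric stretches, in peaks and in length, so the densities, shares and ranks compare regions that are not fully alike.

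All 20 overlapping codanin-1 sites of the interior were on 7q. On 7p 0 of 141 codanin-1 peaks did so, which allows a share of up to 2.13% by the limit of 3 counts (2.58% by the upper bound of the 95% exact interval). For GATA1 it was 0 of 27 peaks, which allows up to 11.1% by the same limit (12.8% by the exact interval). The difference between the arms was not resolved (Fisher's exact test, adjusted p = 0.11 for codanin-1 and 0.14 for GATA1), with shares of 2.26% and 8.91% on 7q and odds ratios whose upper 95% bounds were 1.26 and 1.63. The overlapping sites fell in 12 windows, each with 14 to 40 codanin-1 peaks, whereas the median interior window had 3. Any set of peaks tends to fall in full windows, since the 20 fullest held 50.1% of all interior codanin-1 peaks. The contrast with the median window is therefore largely one of counting. The window from 100 to 101 Mb alone supplied 6 of the 20 codanin-1 and 9 of the 23 GATA1 peaks. Without it the shares were 1.40% (14 of 998) and 5.53% (14 of 253), and the odds ratios against the rest were 0.19 and 0.22. Its own overlapping shares were above those of the interior, so leaving it out could only lower these values.

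The overlapping site with the highest codanin-1 fold was at 150940877 to 150941100, with a fold of 5.19 for codanin-1 and 3.86 for GATA1. The next were at 100608238 to 100609510 (4.36 and 4.14), 100635708 to 100635889 (4.31 and 4.27) and 131219990 to 131220248 (4.30 and 4.17). They were followed by 102716240 to 102716348 (4.21 and 3.90), 75622754 to 75623252 (4.16 and 4.34) and 131561094 to 131562067 (4.14 and 4.03). After these came 73508632 to 73508755 (4.12 and 4.47), 100638007 to 100639619 (4.04 and 4.57) and 73875992 to 73876301 (3.89 and 4.75). Apart from the first, none of the 10 reached a fold of 5 in either list. The other 10 overlapping codanin-1 peaks had lower folds, down to 3.09 at 100550732 to 100551204.

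That last site carried the highest significance of the interior in both lists, with a −log10 q of 7.74 for codanin-1 and 10.4 for GATA1, and a fold of 3.83 for GATA1. It was the 1 codanin-1 peak of the interior with a −log10 q of at least 5. For GATA1 there were 2, the other being at 148028724 to 148028796 (−log10 q 7.14, fold 4.41), which also overlapped a codanin-1 peak. The remaining GATA1 peaks of highest −log10 q were at 141347662 to 141347796 (4.74), 45852175 to 45852367 (3.91) and 152113285 to 152113373 (3.80), and none of those overlapped. The next codanin-1 peaks by −log10 q, at 142272085 to 142272195 (4.60), 114033545 to 114033668 (4.17), 121380682 to 121380824 (4.12) and 73193425 to 73193531 (4.07), did not overlap either.

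The 10 peaks of highest fold in each list were separate from the other list, and those of codanin-1 were narrow. For codanin-1 the fold enrichment deposited by the authors was 6.41 at 142272085 to 142272195, inside the window that held no GATA1 peak, and 6.07 at 114033545 to 114033668. The others of the first 10 ran from 5.81 to 5.57, at 73193425 to 73193531, 132817460 to 132817596, 110633769 to 110633880, 153491323 to 153491433, 65993293 to 65993404, 105300521 to 105300634, 42730957 to 42731062 and 137157048 to 137157157. These 10 were 106 to 137 bp wide, none of them touched a GATA1 peak, and 1 was on 7p.

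For GATA1 the highest fold of the interior was on the short arm, 5.84 at 45852175 to 45852367, a site 18213 bp from any codanin-1 peak. The other 9 of the first 10, all on 7q, ran from 5.79 at 99766679 to 99766738 to 5.18 at 75820577 to 75820636. Between them were the peaks at 100805970 to 100806029, 141347662 to 141347796, 63213559 to 63213816, 152113285 to 152113373, 151552314 to 151552654, 101275260 to 101275319 and 71880381 to 71880440. None of these 10 touched a codanin-1 peak, and their widths ran from 60 to 341 bp. With 1.95% and 8.07% of the interior lists overlapping, so small a number does not separate the highest folds from the rest.

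**Figure D4:**
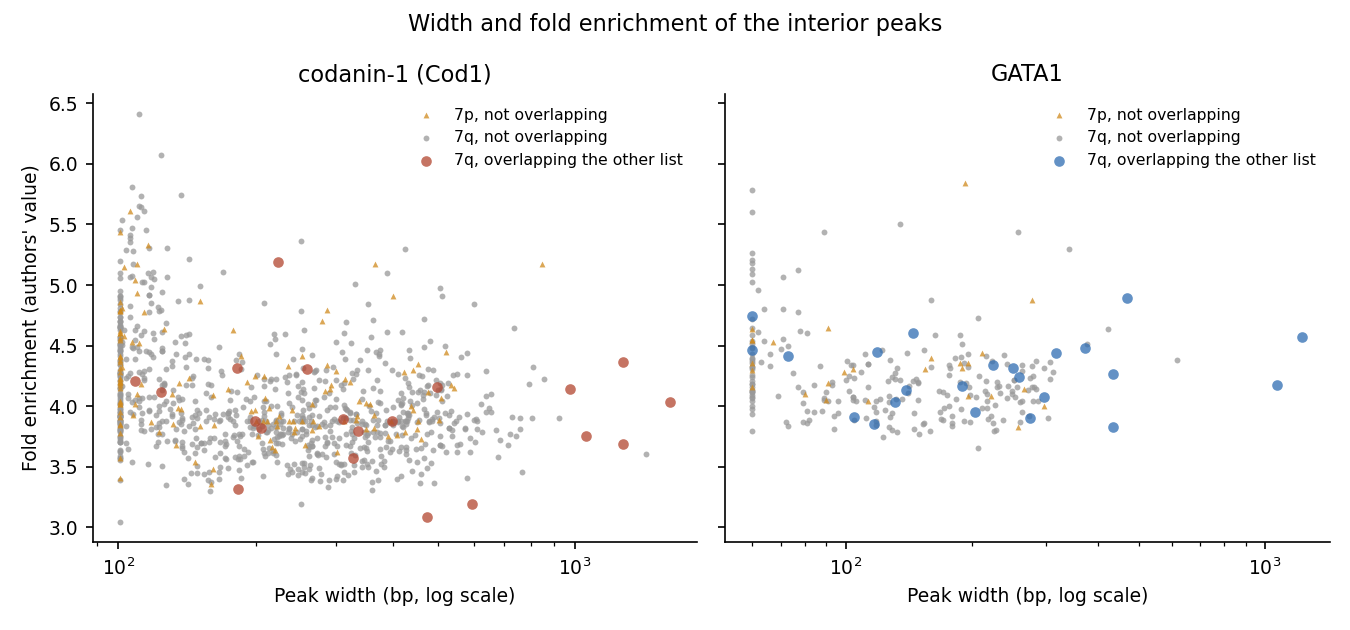
Fold enrichment deposited by the authors against peak width (bp, log scale) for the interior peaks of codanin-1 (left) and GATA1 (right), with 7p peaks as triangles and the peaks that overlap the other list as large coloured circles. The 10 codanin-1 peaks of highest fold are 106 to 137 bp wide, while the 5 widest codanin-1 peaks and the 6 widest GATA1 peaks have folds from 3.61 to 4.90.

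Most of the widest peaks overlapped the other list, and their folds ran from 3.61 to 4.36 for codanin-1 and from 3.83 to 4.90 for GATA1. The 5 widest codanin-1 peaks were at 100638007 to 100639619 (1613 bp), 150104870 to 150106301 (1432 bp), 100608238 to 100609510 (1273 bp), 102278718 to 102279988 (1271 bp) and 100642225 to 100643280 (1056 bp), and 4 of them overlapped a GATA1 peak. For GATA1 the widest were at 100637786 to 100639012 (1227 bp), 100643882 to 100644952 (1071 bp), 100646570 to 100647186 (617 bp), 100641940 to 100642407 (468 bp) and, tied at 434 bp, 100550771 to 100551204 and 100635819 to 100636252. All 6 lay in the window from 100 to 101 Mb, and 5 of them overlapped. A wide peak meets another more easily, so width and overlap are linked by construction.

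Across the whole set the widths and folds were close to those elsewhere, with exceptions in GATA1. The median codanin-1 width was 218 bp (interquartile range 121 to 348) against 220 bp in the rest of the genome, and the median fold 3.94 (3.76 to 4.27) against 3.97. The median GATA1 width was 131 bp (79 to 215) against 169 bp, and the median fold 4.18 (4.04 to 4.38) against 4.18. GATA1 peaks at the list's minimum width of 60 bp made up 17.2% of the interior's (95% exact interval 13.0 to 22.1) and 11.0% of the rest. Of the interior GATA1 peaks 12.3% (8.71 to 16.7) had a −log10 q of 2 or more, against 27.9% elsewhere, and of the codanin-1 peaks 20.1% (17.7 to 22.7) against 23.1%. At a −log10 q of 5 or more the GATA1 shares were 0.702% and 5.53%, and the codanin-1 shares 0.0975% and 0.195%. The interior thus held fewer of the strongly significant GATA1 calls for its number of peaks, a description for which no test was made.

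Between the arms, peaks on 7p were narrower and of slightly higher fold. For codanin-1 the median width was 186 bp on 7p and 223 bp on 7q, and the median fold 4.10 and 3.92. Peaks at the minimum width of 101 bp were 24.8% of those on 7p (17.9 to 32.8) and 13.0% on 7q (10.8 to 15.4). GATA1 had median widths of 113 and 132 bp and median folds of 4.31 and 4.17, over 27 and 258 peaks. The highest codanin-1 folds of 7p were 5.61 at 42730957 to 42731062, 5.44 at 30880322 to 30880422 and 5.33 at 17781805 to 17781920. The last of these stood alone, 5355278 bp from the nearest GATA1 peak.

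Distances to the other list were longer on 7p, where both lists were sparser. From codanin-1 peaks the median distance to a GATA1 peak was 361957 bp on 7p and 63459 bp on 7q, and a GATA1 peak lay within 10 kb of 5.67% and 19.0% of them. From GATA1 peaks the median distance to a codanin-1 peak was 19473 bp on 7p and 6357 bp on 7q, with a codanin-1 peak within 10 kb of 29.6% and 59.3%. In the rest of the genome without chromosomes 9, 22, Y and M the medians were 132546 and 10048 bp. Over the full rest of the genome they were 96221 and 3717 bp, with 22.4% and 61.7% within 10 kb. On 7q the 2 lists thus stood nearer at the median than in the rest without those chromosomes, although fewer peaks overlapped. Against the full rest this held from codanin-1 peaks only, and the full rest had the larger shares within 10 kb.

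**Figure D5:**
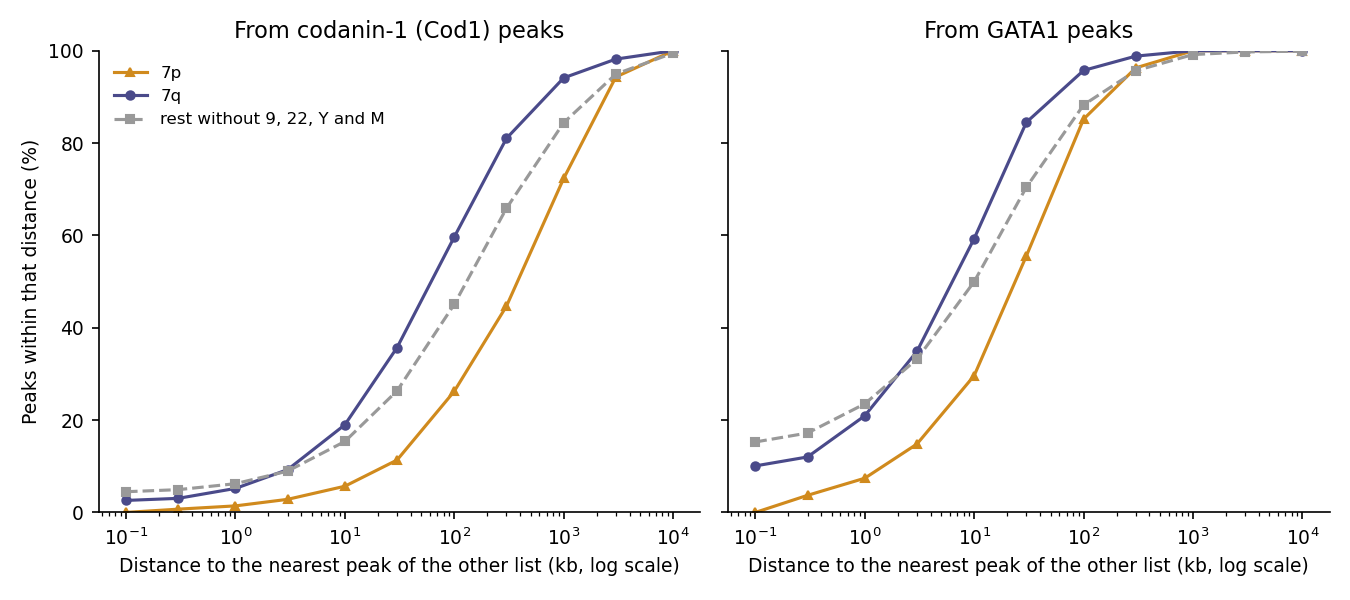
Cumulative share of codanin-1 peaks (left) and GATA1 peaks (right) with a peak of the other list within a given distance (kb, log scale), for 7p, 7q and the rest of the genome without chromosomes 9, 22, Y and M. The 7q curve starts below the rest at 0.1 kb and stands above it at 10 kb, where it reaches 19.0% for codanin-1 and 59.3% for GATA1, and the 7p curve stays below both from 0.1 to 100 kb.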

How the data were processed

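ChIP-seq peak lists of 2 of the 3 libraries were used, Cod1 and GATA1. BWA, MACS2 and hg19 are named in the submitters' processing notes. For versions, background library, threshold, filters and pooling, the sources used here say nothing. Each deposited file has 9 columns and no header. The fold enrichment, a ratio over the caller's background, and the −log10 p and −log10 q are the authors' deposited values. The deposited score restates the −log10 q, as 10 times its value cut to a whole number, and was not used. Read counts are not in these files, so depth is unknown, and folds were compared within a list.

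Positions are 1-based on hg19. Midpoints were counted in 1 Mb windows from coordinate 0, genome-wide. Fisher's exact test was adjusted (Benjamini-Hochberg) over all windows with at least 10 peaks, and over the 6 odds ratios for interior, arms and overlap. The window test was tested on simulated data in which peaks were drawn as independent, so the crowding of neighbouring peaks was not covered. Named sites are, for each list, the 10 peaks of highest fold, the 5 widest and the 5 of highest −log10 q (ties kept), the 10 overlapping sites of highest codanin-1 fold, the 6 fullest windows (ties kept), called windows, runs of at least 2 empty windows and clusters of at least 6 peaks. The 3 highest folds on 7p were added after seeing the data. The members and rules were chosen with earlier results of these data known. Analyses used Python 3.11.15, numpy 2.4.6, scipy 1.17.1, pandas 2.3.3, statsmodels 0.14.6 and matplotlib 3.10.9.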

Additional observations from a re-analysis of the deposited data

How the results depend on the processing

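Of 57 alternative values, 44 kept their direction and side of the threshold, or their size. That count includes the overlap odds ratios between the arms, where 7p had 0 overlapping peaks. With stricter thresholds, a stricter overlap or a 7q window left out, those odds ratios could only be 0 again, so they say nothing about stability. The odds ratio of codanin-1 over GATA1, interior against the rest (1.32), was 1.09 without chromosomes 9, 22, Y and M, 1.13 at a fold of at least 4, 1.02 with peaks merged within 10 kb, and reversed to 0.89 against other chromosomes' interiors; the cause was not tested. With −log10 q held to 1.5 or more it moved the other way, to 1.71, and the codanin-1 overlap odds ratio moved from 0.27 to 0.17. At a fold of at least 4 the overlap odds ratios were 0.50 for codanin-1 and 0.60 for GATA1, with fewer peaks tested, and the codanin-1 density ratio of 7p over 7q was 0.40. It was 0.34 after merging. The number of called windows was 1 instead of 2 with −log10 q held to 1.5 or more, with fold held to 4 or more, without the fullest GATA1 window, with shifted windows, and without chromosomes 9, 22, Y and M. No paired analysis was possible because there was 1 library for each antibody, and no library could be left out. Depth is unknown, so sites under the caller's threshold cannot be counted.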

Other observations

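Neighbouring peaks of the same list were spaced differently on the arms. The median gap between codanin-1 peaks was 152.6 kb on 7p and 32.1 kb on 7q, and 8.57% and 23.8% of the gaps were at most 10 kb. For GATA1 the median gaps were 352.7 and 50.4 kb, and the shares of gaps of at most 10 kb were 15.4% and 24.5%.

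Codanin-1 peaks in the interior windows with at least 20 codanin-1 peaks had a median width of 251 bp (477 peaks), against 194 bp in the other windows (549 peaks), with median folds of 3.93 and 3.95. For GATA1, windows with at least 5 GATA1 peaks had a median width of 134 bp (202 peaks), against 122 bp (83 peaks). These values have no test.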
